A study of Rattus norvegicus with 9 samples.

Results

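The comparison described here sets cultured rat horizontal basal cells kept for 6 h in phorbol 12-myristate 13-acetate (PMA) against vehicle-treated cells, across all measured genes. The samples were chosen by their titles and are 6 of the 9 in the series. They came from primary cultures of the olfactory epithelium of strain SD rats at passage 7, sequenced as bulk RNA. The 3 vehicle libraries received 0.1% DMSO and are labelled time 0, and the 3 treated libraries received 50 nM PMA for 6 h. No vehicle library is labelled with 6 h, so PMA and time in culture cannot be told apart. Nothing in the labels ties replicates to a culture or an animal. The p-values therefore measure only the spread between these libraries, which may be technical. Each library held 14626173 to 19001819 reads in genes.

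Horizontal basal cells sit on the basal lamina of the olfactory epithelium and serve as its reserve stem cells, which stay at rest until the tissue is injured. PMA takes the place of diacylglycerol, the lipid messenger that switches on protein kinase C, and through it the Ras, MAP kinase and NF-kB pathways. In stratified epithelia, phorbol esters are known for driving cells out of the proliferating basal state, and long exposure depletes several protein kinase C proteins.

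Most markers of the label had reads in vehicle, and Krt5 and Krt14 made up most of their sum. Of 13 horizontal basal cell markers, 12 were measured well enough to test, and their summed level was 17511 to 20294 CPM (counts scaled to a library of 1000000 reads) in the vehicle libraries. At 6 h the sum was 6631 to 7558 CPM, so the groups did not overlap. Of the 12, 10 fell, and the adhesion genes Cdh1 (1.75) and Icam1 (0.30; 0.04 with upper-quartile scaling, not called, -0.24 without normalization, called lower and 0.23 without PMA 6 h replicate 2, not called) rose. Pax6, the remaining marker, had no read in vehicle and 1 library with reads at 6 h. Sox2, among the 10 that fell, was already low in vehicle, at 2.46, 3.39 and 2.92 CPM. In bulk RNA, fewer cells of a type and less RNA per cell cannot be told apart.

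The response touched most of the measured transcriptome. In edgeR's quasi-likelihood fit, 7776 of 10128 tested genes (76.8%) had a Benjamini-Hochberg adjusted p under 0.05, the threshold for every call here. Of all tested genes, 37.8% rose and 39.0% fell. A change of at least 2-fold was called for 3991 genes (39.4%), with 18.4% of all genes higher and 21.0% lower by that much. Among these, 1188 rose and 1359 fell by 2-fold to 4-fold, 538 rose and 623 fell by 4-fold to 16-fold, and 135 rose and 148 fell by 16-fold or more. The libraries of the groups did not overlap for 79.0% of genes. The plot of all tested genes shows changes at every level of expression. The share of reads taken by the 10 most abundant genes was 6.20% to 6.66% in the vehicle libraries and 8.69% to 8.86% at 6 h. Scaling matters at this breadth: the median gene shifted by -0.26 on the log2 scale with upper-quartile scaling and by -0.54 without normalization, and list medians shifted with it. Without normalization 2277 genes rose and 5855 fell. Below, bracketed numbers after gene names are log2 fold changes of 6 h over vehicle. Counts of list members are to be read against 37.8% higher and 39.0% lower, and list medians against -0.03 for all genes.

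**Figure D1:**
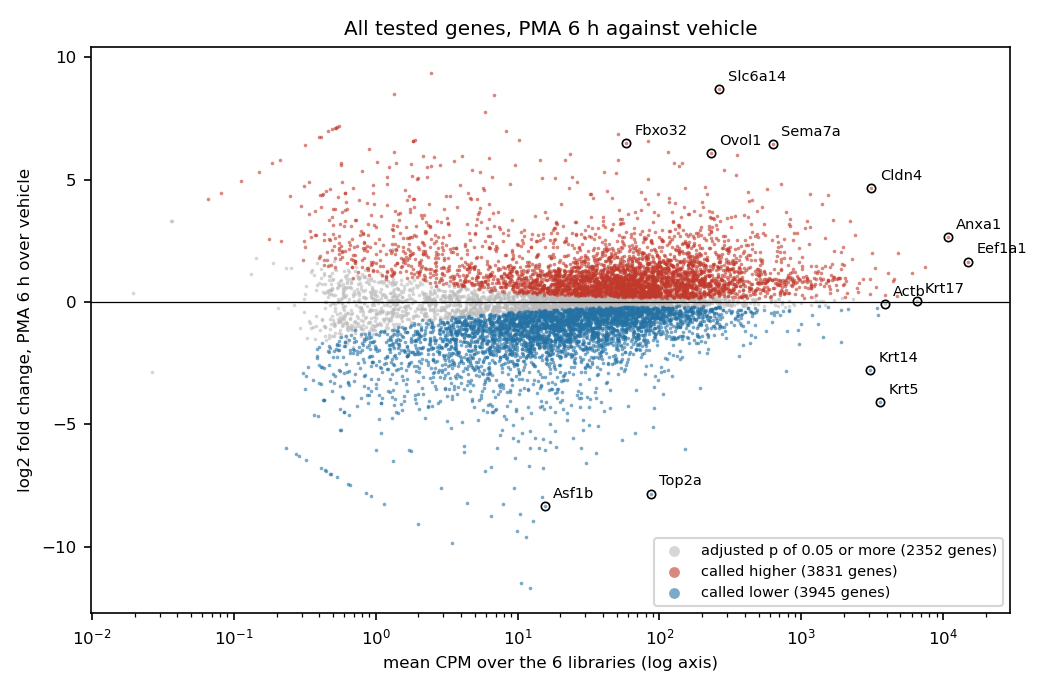
Each point is 1 of the 10128 tested genes, with its mean CPM over the 6 libraries on a log axis and its log2 fold change at PMA 6 h over vehicle. Called genes are red (3831 higher) or blue (3945 lower), circles mark 13 named genes, and large changes appear at low and high levels alike. The straight rows of points at the far left are genes without a read in 1 group, whose fitted fold change depends on the prior count.

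The largest rises started from low levels in vehicle. CPM is not divided by gene length, so it compares a gene between libraries and not genes with each other. Sema7a, a membrane-anchored semaphorin that signals through integrins, stood at 12.6, 12.6 and 17.8 CPM in the vehicle libraries and at 1221, 1304 and 1222 CPM at 6 h. Its log2 fold change was 6.45 ± 0.18 (approximate SE; adjusted p = 1.1e-11), an 87.6-fold rise. Ovol1, a zinc finger repressor that stops the proliferation of epithelial progenitors, went from 5.91, 6.83 and 7.49 CPM to 454, 489.6 and 419.7 CPM (6.08 ± 0.12, adjusted p = 2.4e-16). Prdm1, a repressor (Blimp1) active in the maturation of the epidermis and of lymphocytes, went from 8.80, 10.2 and 14.2 CPM to 675, 706 and 709.8 CPM (5.99 ± 0.14, adjusted p = 2.8e-15). In each of these genes every 6 h library lay above every vehicle library, which was a condition for being listed among the largest rises. Fbxo32, a ubiquitin ligase subunit and a classic target of forkhead O factors, was at 1.29, 1.42 and 1.06 CPM in vehicle and at 113, 117 and 117 CPM at 6 h (6.50 ± 0.12, adjusted p = 7.1e-17). The stress factor Atf3 went from 3.54, 3.18 and 2.97 CPM to 227, 235 and 216 CPM (6.12 ± 0.10, adjusted p = 3.4e-17). Trex2, an exonuclease of keratinocytes, rose from 0.432, 0.602 and 1.27 CPM to 39.6, 41.9 and 44.9 CPM (5.81 ± 0.23, adjusted p = 3.2e-13). The P-type ATPase gene Atp13a4 rose from 0.691, 1.63 and 3.08 CPM to 160.3, 168 and 166 CPM (6.57 ± 0.27, adjusted p = 2.0e-08). The spread among the 6 h libraries was small for all of these, while vehicle replicate 3 was the highest vehicle library for Sema7a, Ovol1, Prdm1, Trex2 and Atp13a4. Calcb, which encodes a calcitonin gene-related peptide, stood at 0.0863, 0.0430 and 0.531 CPM in vehicle and 12.5, 11.6 and 12.8 CPM at 6 h. The size of its fold change, but not the rise itself, depended on 1 library (5.89; 7.41 without vehicle replicate 3).

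The largest falls were those of genes that copy or divide the genome. Top2a, the topoisomerase that untangles replicated chromosomes, stood at 68.2, 154 and 296 CPM in the vehicle libraries and at 0.208, 0.881 and 1.10 CPM at 6 h. Its log2 fold change was -7.84 ± 0.85 (adjusted p = 1.3e-04; -7.20 without vehicle replicate 3). Asf1b, a histone chaperone of the replication fork, went from 16.2, 29.8 and 47.4 CPM to 0, 0.147 and 0.116 CPM (-8.34 ± 0.65, adjusted p = 5.7e-07). Dscc1, which helps load the sliding clamp, went from 11.7, 21.1 and 23.1 CPM to 0, 0.0735 and 0.173 CPM (-7.61 ± 0.52, adjusted p = 1.2e-09; -8.77 without PMA 6 h replicate 3). Asf1b and Dscc1 had so few reads at 6 h that their ± values understate the uncertainty. Groups that do not overlap were a condition for the largest falls too, and the vehicle libraries were unlike each other. Vehicle replicate 1 was lowest and vehicle replicate 3 highest in all 3 genes. The cause of that spread was not tested. The other genes among the 15 largest falls, such as Pbk, Clspn, Depdc1, Kif2c, Spc25 and Ndc80, also belong to replication or mitosis.

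**Figure D2:**
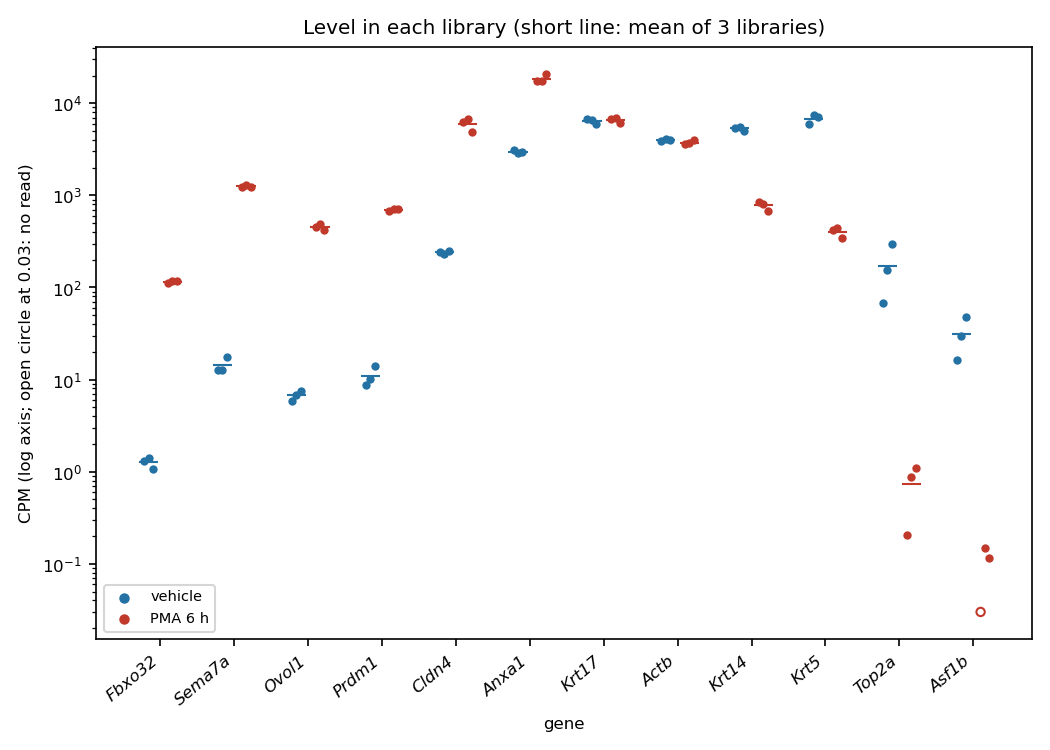
CPM on a log axis in each vehicle library (blue) and each PMA 6 h library (red) for 12 named genes, with a short line at the mean where all 3 libraries had a read and an open circle where a library had none. The groups are far apart for 10 of the genes and overlap for Krt17 and Actb, and the vehicle points of Top2a and Asf1b are spread the most.

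Promoter sequence was read for the genes with the largest changes, because phorbol esters act on genes through AP-1 sites and proliferation genes are controlled through E2F sites and the cell cycle homology region (CHR). The windows printed were chosen because they hold such a motif, so they do not show how common the motifs are. They are from RefSeq (GRCr8), 80 bases each and all before the annotated start, while the reads were counted on rn6. Capitals mark TGACTCA (the AP-1 site, whose reverse complement is TGAGTCA) in Slc6a14 and Glrx, which rose, TTTCCCGC (the E2F site, reverse complement GCGGGAAA) in Ns5atp9 and TTTGAA (the CHR, reverse complement TTCAAA) in Top2a and Spc25, which fell.
Slc6a14 (chrX:117144676-117144755, plus strand): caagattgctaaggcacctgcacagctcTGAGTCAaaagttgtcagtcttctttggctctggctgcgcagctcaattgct
Glrx (chr2:7073607-7073686, plus strand): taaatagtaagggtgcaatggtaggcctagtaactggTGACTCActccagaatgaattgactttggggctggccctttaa
Ns5atp9 (chr8:75315636-75315715, plus strand): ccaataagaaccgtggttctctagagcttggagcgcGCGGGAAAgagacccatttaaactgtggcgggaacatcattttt
Top2a (chr10:84473094-84473173, minus strand): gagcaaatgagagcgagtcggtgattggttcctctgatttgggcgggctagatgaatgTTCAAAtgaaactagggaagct
Spc25 (chr3:74396733-74396812, minus strand): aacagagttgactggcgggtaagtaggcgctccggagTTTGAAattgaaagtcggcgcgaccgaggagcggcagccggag
Slc6a14 is an amino acid transporter, Glrx a glutaredoxin, Ns5atp9 a clamp-binding protein of replication and Spc25 a subunit of the kinetochore. Of the 25 genes with the largest rises or gains, 17 had a promoter in the reference. Of these, 2 held TGACTCA, 0 held an E2F motif (TTTGGCGC or TTTCCCGC) and 1 held TTTGAA. Of the 25 with the largest falls or losses, 18 had one, of which 1 held TGACTCA, 1 held an E2F motif and 7 held TTTGAA. Across all tested genes, both strands were searched from 250 bases before to 50 bases after the start, and 8259 of 10128 genes had a window. TGACTCA was in 8.07% of 508 windows of genes at least 4-fold higher, in 3.54% of 621 windows of genes at least 4-fold lower, in 3.64% of windows of all tested genes and in 4.53% of all reference windows. The E2F motif (TTTGGCGC or TTTCCCGC) was in 1.38% of the windows of the higher genes, 6.44% of the lower, 3.14% of all tested and 1.53% of all reference windows. TTTGAA was in 11.8% of the higher, 18.7% of the lower, 11.2% of all tested and 18.1% of all reference windows. The cAMP response element TGACGTCA, which overlaps TGACTCA in part, was about as frequent in the higher (3.35%) as in the lower genes (3.22%) and in all tested genes (3.41%). Other motifs searched also differed. The NF-kB (kB) site was in 8.86% of the higher, 5.15% of the lower and 5% of all tested windows. The CArG box (CCWWWWWWGG, W for A or T) was in 2.17%, 1.29% and 1.19%. CCAAT was in 34.6%, 42.8% and 38%. A match to these letters is a description of the window and not a binding site.

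By number of reads, the gains and losses fell on other genes. Anxa1, a phospholipid-binding protein of differentiating epithelia, gained the most, from 3131, 2861 and 2956 CPM in the vehicle libraries to 17429, 17421 and 20822 CPM at 6 h (2.64 ± 0.09, adjusted p = 5.5e-14). Eef1a1, the elongation factor that brings tRNA to the ribosome, went from 7203, 7254 and 7363 CPM to 23120.4, 22868 and 22357 CPM (1.65 ± 0.07) and took the most reads in both groups. Cldn4, a tight junction claudin, went from 241, 231 and 247 CPM to 6311, 6785 and 4898 CPM (4.65 ± 0.11). Ndrg1, a stress and differentiation gene, went from 1988, 2049 and 1742 CPM to 7432, 7897 and 7712 CPM (2.0 ± 0.09). Glrx went from 623, 634 and 621 CPM to 3952, 3929.8 and 4584 CPM (2.73 ± 0.09). The ferritin light chain gene Ftl1 (1.45 ± 0.24) and the aldo-keto reductase gene Akr1b8 (2.02 ± 0.19) rose as well, from vehicle libraries that were unlike each other. Ftl1 stood at 5376, 3942 and 2626 CPM and Akr1b8 at 1636, 1234 and 898 CPM in vehicle, lowest in replicate 3. These 7 genes passed the test, with no overlap between the groups. The losses were led by genes of the basal cell programme. Krt5 and Krt14, the keratin pair of basal cells, lost the most reads. Krt5 stood at 5922, 7509.8 and 7049.9 CPM in vehicle and 423, 440.4 and 344 CPM at 6 h (-4.08 ± 0.16, adjusted p = 1.1e-10). Krt14 stood at 5446, 5512 and 5016 CPM and 845, 809 and 682 CPM (-2.77 ± 0.10, adjusted p = 7.6e-14). Next came Anxa8 (-1.65 ± 0.09), another annexin, and the integrin subunit Itgb4 (-1.43 ± 0.13), which anchors basal cells to the lamina. The desaturase Scd2 went from 1398, 1513 and 1205 CPM to 202, 206 and 177 CPM (-2.81 ± 0.13). Pkm, Col17a1, Tubb5, Itga6 and Ldha made up the rest of the 10 largest losses. Of these, the glycolysis genes Pkm and Ldha had means of 4136 and 3757 CPM in vehicle and 2848 and 3129 CPM at 6 h.

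A small set of genes held its level. For 258 genes (2.55%) the 95% confidence interval of the fold change lay within 1.2-fold of no change. The one with the most reads was Krt17, a keratin of wounded epithelia, at 6734, 6631 and 5916 CPM in vehicle and 6674, 6907 and 6139 CPM at 6 h, so its groups overlapped while those of the basal keratins Krt5 and Krt14 did not. Actb, a cytoskeletal actin, had the next most, at 3894, 4103 and 4014 CPM in vehicle and 3567, 3713 and 3953 CPM at 6 h, again with overlap. Its 95% interval ran from -0.26 to 0.07 on the log2 scale. This set depended on the scaling, since upper-quartile scaling and no normalization put Krt17 at -0.23 and -0.51 and Actb at -0.35 and -0.63, all called lower.

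Signalling lists differed in how far they stood from the shares of all genes. Of the Ras and Rap list, 70% was called and changed at least 2-fold, against 39.4% of all tested genes. That share was 75% for RGS proteins, 61.9% for receptor tyrosine kinases and 50% for SOCS, STAT and JAK. It was 40% for the insulin-like growth factor axis and 15.4% for protein kinase C and diacylglycerol kinases. Of 20 tested Ras and Rap exchange factors and GTPase activators, 14 rose and 4 fell (median 1.12). Rasa1, the GTPase activator that returns Ras to its inactive form, went from 150.3, 184 and 207 CPM to 1133, 1159 and 1212 CPM (2.69 ± 0.11, adjusted p = 4.0e-13). The Rap regulator Sipa1l2 (5.07) and the exchange factor Rapgef2 (2.26) rose too, whereas Rasa3 (-2.29) and Rapgef5 (-1.29) fell. Of 21 receptor tyrosine kinases, 11 rose and 7 fell (median 0.81, but 0.41 to 0.46 in a fit of the 6 libraries or at a minimum count of 50). Erbb3, the neuregulin receptor, rose by 4.21 from 8.33, 6.57 and 9.35 CPM to 149, 149 and 149 CPM, and Met, the receptor for hepatocyte growth factor, by 1.86 from 98.0, 112 and 124 CPM to 398, 393 and 423 CPM. The VEGF receptor Flt1 rose from a low level (5.60; 6.25 without vehicle replicate 2), and the fibroblast growth factor receptor Fgfr3 fell (-1.67). In the insulin-like growth factor axis, 6 of 10 genes rose and 2 fell (median 0.73, but 0.46 to 0.48 without the count filter, without vehicle replicate 1, without PMA 6 h replicate 1 or without PMA 6 h replicate 2; 5 rose and 4 fell without normalization). The binding protein Igfbp3 rose by 3.11 and the adaptor Irs2 by 2.86, while its relative Irs1 fell (-0.61). The protein kinase C and diacylglycerol kinase genes themselves had no common direction. Of 13 tested, 4 rose and 6 fell (median -0.28, but -0.07 without the count filter). Prkcd, a calcium-independent isoform, went from 100.1, 112 and 109.9 CPM to 515, 516 and 476 CPM (2.23 ± 0.07, adjusted p = 3.0e-14), and Prkd3, a protein kinase D, fell (-0.88). Of the cytokine feedback and signalling genes SOCS, STAT and JAK, 10 of 16 rose and 4 fell (median 0.41, and -0.13 without normalization; 6 rose and 5 fell with upper-quartile scaling, 6 rose and 6 fell without normalization, 11 rose and 2 fell with a replicate block, 10 rose and 2 fell with the strand columns summed, without vehicle replicate 2 or without vehicle replicate 3). The feedback inhibitors Socs1 (4.40), Cish (3.18), Socs6 (3.06) and Socs3 (3.01) rose, and the kinase gene Jak3 (-2.02) fell. Rgs2, which turns off G protein signals, rose (4.53) in a family in which 5 of 8 genes fell and 2 rose (1 rose and 4 fell at a minimum count of 50).

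Several transcription factor families had more members higher than lower. Of 17 ETS factors, 13 rose and 1 fell (median 0.89; 11 rose and 2 fell with upper-quartile scaling, 9 rose and 3 fell without normalization, 12 rose and 2 fell without vehicle replicate 3 or without PMA 6 h replicate 2). The rises were led by the epithelial members Ehf, at 17.7, 16.8 and 23.1 CPM in vehicle and 408, 429 and 395 CPM at 6 h (4.42 ± 0.11, adjusted p = 9.0e-16), and Elf3, at 50.2, 43.5 and 48.1 CPM and 877, 895 and 800.4 CPM (4.18 ± 0.11, adjusted p = 4.4e-15). Both promote epithelial differentiation, and all 6 h libraries lay above all vehicle libraries. Of 17 forkhead factors, 11 rose and 4 fell (median 0.84; 11 rose and 2 fell by limma-voom). Foxo3, a factor of growth arrest that drives Fbxo32 in muscle, went from 42.2, 41.6 and 39.9 CPM to 476, 499.6 and 438 CPM (3.51 ± 0.09, adjusted p = 2.0e-15), and Foxq1 (1.82) and Foxd1 (2.83) rose too. Of 26 nuclear receptors, 16 rose and 3 fell (median 0.78, but 0.27 without the count filter; 15 rose and 5 fell with upper-quartile scaling, 13 rose and 7 fell without normalization). Nr4a3, an immediate early receptor, rose (4.77; 5.67 without vehicle replicate 1), as did Ppard (0.87), a lipid sensor, and the vitamin D receptor Vdr fell (-1.57). Of 21 C/EBP, CREB, Maf and other bZIP factors, 13 rose and 4 fell (median 0.90; 12 rose and 7 fell without normalization). The small Maf genes Maff (3.68) and Mafk (2.94) rose with Cebpb (2.68), whereas Nfe2l2, the NRF2 factor that pairs with small Maf proteins, fell (-1.15). Among the 7 tested SOX factors 3 rose and 4 fell (median -1.31, but -0.45 to 0.97 without the count filter or with the strand columns summed). Sox4, a factor of progenitors and wound repair, went from 49.3, 47.3 and 44.0 CPM to 835, 886 and 726 CPM (4.12 ± 0.10, adjusted p = 1.1e-15) and Sox9 rose (2.01). The olfactory stem cell factor Sox2 fell from a low level (-2.06; -2.70 without PMA 6 h replicate 2), and Sox7 (-1.31) and Sox12 (-1.88) fell too. The Iroquois homeobox genes Irx5 (3.29), Irx2 (2.93) and Irx3 (2.79) rose side by side, in a homeobox list with 16 of 34 genes higher and 9 lower.

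All 18 tested circadian clock genes were called, against 76.8% of all tested genes. Of the list, 83.3% was called and changed at least 2-fold, against 39.4% of all tested genes. The clock is a transcription loop in which Arntl (Bmal1) and Clock or Npas2 activate the genes of their own repressors, Per, Cry and Nr1d. Of the 18 genes, 16 rose and 2 fell (median 1.29). The receptor Nr1d1, which represses Arntl, stood at 19.2, 23.2 and 27.7 CPM in vehicle and 278, 276 and 226 CPM at 6 h (3.48 ± 0.12, adjusted p = 5.7e-13). Its relative Nr1d2 went from 12.3, 16.7 and 20.2 CPM to 98.3, 94.9 and 82.3 CPM (2.49 ± 0.15, adjusted p = 8.3e-10), and the output factor Dbp from 8.16, 11.3 and 10.6 CPM to 71.6, 65.6 and 40.5 CPM (2.57 ± 0.20, adjusted p = 3.4e-07). The groups did not overlap in any of these, although PMA 6 h replicate 3 was the lowest treated library in all 3. Ciart (2.54), a further repressor of the loop, and the kinase gene Csnk1d (1.39), rose too. The 2 that fell were activators. Arntl went from 56.5, 44.0 and 43.8 CPM to 36, 32.7 and 32.7 CPM (-0.51 ± 0.11, adjusted p = 5.4e-04), and Npas2 from 17.6, 18.2 and 18.1 CPM to 9.27, 9.55 and 4.57 CPM (-1.22 ± 0.23, adjusted p = 1.5e-04). The labels do not give the clock time of collection.

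**Figure D3:**
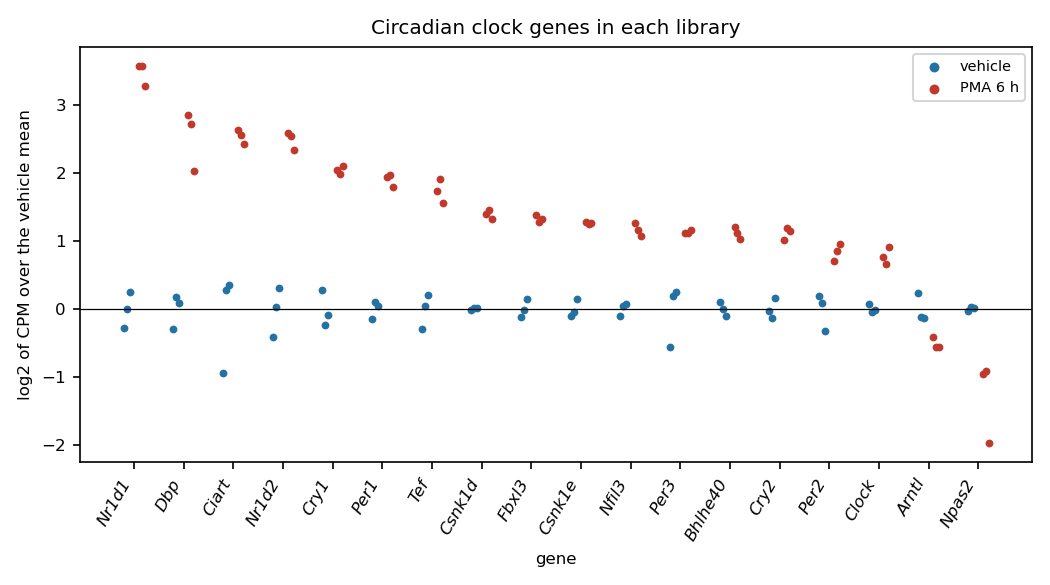
For each of the 18 circadian clock genes, ordered by fold change, points give log2 of the CPM over the vehicle mean in the 3 vehicle (blue) and 3 PMA 6 h (red) libraries. The red points lie above the blue for 16 genes and below for Arntl and Npas2.

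Among genes of the cell surface and the matrix, surface proteases were mostly higher, and genes of glycosylation mostly lower. Of 28 kallikreins, cathepsins and transmembrane serine proteases, 20 rose and 2 fell (median 1.22; 20 rose and 1 fell without vehicle replicate 2). Prss22, a secreted serine protease of airway epithelium, went from 35.3, 32.7 and 40.3 CPM to 832, 759 and 822 CPM (4.48 ± 0.11, adjusted p = 9.0e-16). St14 (matriptase), an activator of other surface proteases, went from 175, 183 and 193 CPM to 1058, 1131 and 1018 CPM (2.54 ± 0.08, adjusted p = 1.2e-14). The lysosomal protease gene Ctsl rose by 1.53, and Tmprss4 (3.18) by more. Of 16 serpins, the family of protease inhibitors, 9 fell and 5 rose (median -0.57, but -0.34 to -0.29 without the count filter or without vehicle replicate 3). Serpinb9 (-3.16), Serpinb8 (-2.22) and Serpinb10 (-1.70) fell, while Serpinb2, a wound-induced inhibitor of plasminogen activators, went from 422, 442 and 355 CPM to 3778, 4058 and 4243 CPM (3.31 ± 0.10, adjusted p = 1.4e-14). Among 21 mucins and enzymes of mucin-type O-glycosylation, 13 fell and 5 rose (median -1.05; 3 rose and 14 fell without normalization). The sialyltransferase genes St3gal2 (-4.50), St3gal3 (-2.56) and St3gal6 (-2.26), which cap the sugar chains, fell together with Galnt11 (-2.36), which starts them, and C1galt1 (1.60), which extends them, rose. Of 12 tested collagen genes, 4 fell and 2 rose (median -0.81; 2 rose and 8 fell without normalization, 1 rose and 4 fell at a minimum count of 50). Col17a1, the hemidesmosomal collagen, went from 906, 1595 and 1909 CPM to 492, 505 and 331 CPM (-1.73 ± 0.29, adjusted p = 0.0011), and the fibrillar Col5a1 fell (-5.33). The basement membrane collagen gene Col18a1, at 1342 CPM in vehicle and 1362 CPM at 6 h, did not pass the test (adjusted p = 0.88), and was called lower (-0.52) without normalization. Of 23 tested keratins, 11 fell and 8 rose (median -0.51, but -0.90 to -0.23 without the count filter, without vehicle replicate 1 or without PMA 6 h replicate 2; 5 rose and 14 fell without normalization). Krt80 (2.88), a keratin of differentiating epithelia, and Krt18 (2.50), of simple epithelia, rose, and Krt13 (-2.52), of mucosal epithelia, fell beside Krt5 and Krt14. Summed keratin counts were 1.95% to 2.14% of the scaled library total in the vehicle libraries and 0.972% to 1.06% at 6 h. The scaled total is the reads in genes multiplied by a normalization factor, so these percents are not shares of reads.

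Cytosolic ribosomal protein genes mostly rose. Mitochondrial ribosomal protein, aminoacyl-tRNA synthetase and ribosome biogenesis genes mostly fell. Not every list of protein synthesis fell, since 25 of 52 translation initiation factors rose and 15 fell (median 0.17). Of 82 cytosolic ribosomal protein genes, 75 rose and 2 fell (median 0.87). Their summed counts were 5.29% to 5.63% of the scaled library total in the vehicle libraries and 9.10% to 10.4% at 6 h. These percents are not shares of reads. The normalization factors that multiply the reads were 1.285 to 1.313 in vehicle and 0.8792 to 0.9105 at 6 h. The share of reads taken by these genes therefore rose by less than these percents. Rplp0, a stalk protein, went from 3239, 3141 and 2932 CPM to 6063, 6231 and 5613 CPM (0.94 ± 0.09, adjusted p = 2.5e-08), and Rpl12 rose by 1.28. The 2 that fell were the paralogues Rps27l (-0.61) and Rpl39l (-0.56), and reads shared with pseudogenes or near-identical copies were not assigned to genes, which makes single members uncertain. Of 67 mitochondrial ribosomal protein genes, 55 fell and 0 rose (median -0.79; 1 rose and 54 fell in a fit of the 6 libraries, by DESeq2 or with a replicate block). Mrps10 went from 30.2, 26.6 and 26.8 CPM to 6.36, 6.39 and 5.90 CPM (-2.17 ± 0.15, adjusted p = 5.9e-10), and Mrpl17 from 147, 132 and 133 CPM to 61.8, 59.2 and 53.5 CPM (-1.24 ± 0.08, adjusted p = 3.5e-10). Of 35 aminoacyl-tRNA synthetases, which charge tRNAs, 27 fell and 3 rose (median -0.64; 1 rose and 33 fell without normalization). The falls took in mitochondrial and cytosolic enzymes. The mitochondrial enzyme genes Rars2 (-3.50), Ears2 (-2.32; -3.34 without PMA 6 h replicate 2) and Nars2 (-2.11) fell, and the cytosolic Qars rose (0.77). Of 43 genes of ribosome biogenesis and RNA polymerase I, 29 fell and 7 rose (median -0.66; 4 rose and 33 fell with upper-quartile scaling, 2 rose and 36 fell without normalization). Utp14a (-1.86) of the small subunit processome, the polymerase subunit Polr1b (-1.54) and the nucleolar protein Mybbp1a (-1.34) fell, whereas Ubtf (1.14), a factor that opens ribosomal DNA, rose.

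**Figure D4:**
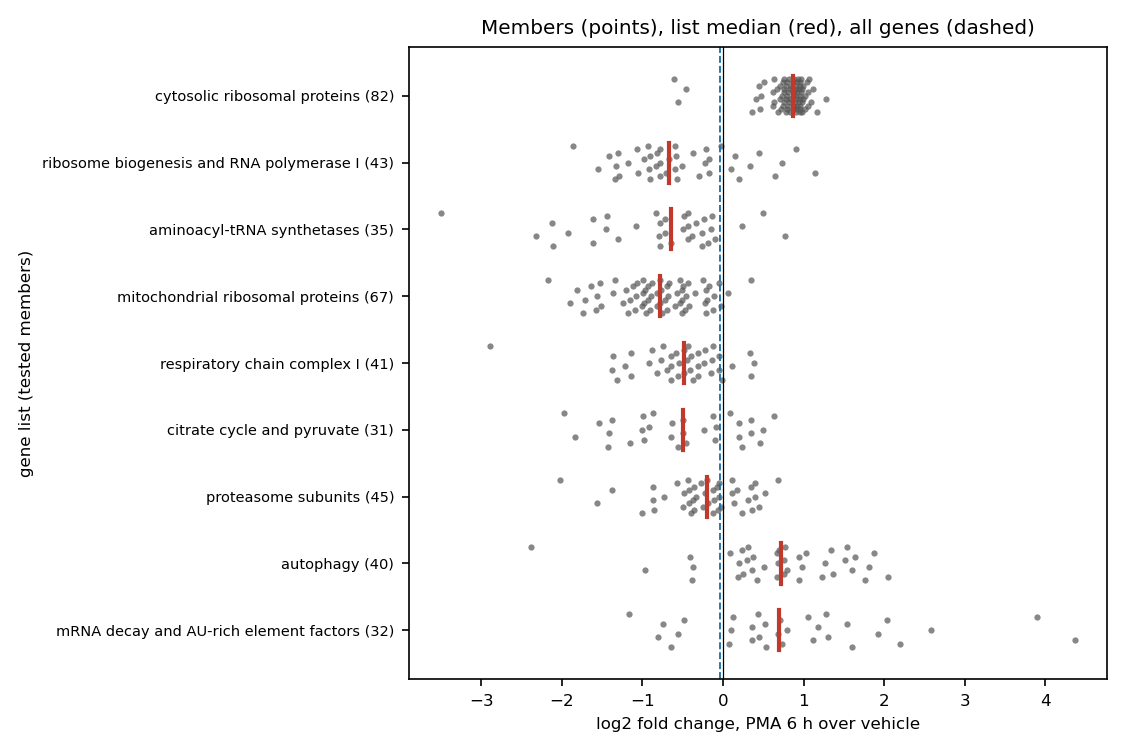
Each point is the log2 fold change at PMA 6 h over vehicle of 1 tested member of 9 gene lists, with the list median in red and the median of all genes as a dashed line. Cytosolic ribosomal proteins lie to the right (median 0.87) and mitochondrial ribosomal proteins to the left (median -0.79).

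Among metabolic genes, those of complex I, the citrate cycle and sterol synthesis fell more often than they rose. Of 41 complex I genes, 28 fell and 3 rose (median -0.48; 0 rose and 35 fell with upper-quartile scaling, 0 rose and 38 fell without normalization). Ndufs1, an iron-sulphur subunit of its electron path, went from 183, 158 and 163 CPM to 65.7, 65.4 and 64.1 CPM (-1.37 ± 0.08, adjusted p = 6.8e-11), and the assembly factor Ndufaf6 fell by 2.90 on the log2 scale. Of 41 genes of complexes II to V, 16 fell and 9 rose (median -0.08, but -0.12 to -0.03 without the count filter, at a minimum count of 50, without vehicle replicate 1, without PMA 6 h replicate 2 or without PMA 6 h replicate 3; 2 rose and 19 fell with upper-quartile scaling, 1 rose and 34 fell without normalization). Of 31 citrate cycle and pyruvate genes, 19 fell and 7 rose (median -0.50; 1 rose and 23 fell with upper-quartile scaling, 0 rose and 26 fell without normalization), with Idh3a (-1.43) and Idh2 (-1.84), isocitrate dehydrogenases, among those that fell. In glycolysis 10 of 23 genes rose and 7 fell (6 rose and 12 fell with upper-quartile scaling, 4 rose and 14 fell without normalization). Hk2 (1.89), the inducible hexokinase, and Pfkfb3 (2.33), which makes the activator of phosphofructokinase, rose, and Hk1 (-1.09), the housekeeping hexokinase, and Pfkm (-2.75), the muscle-type phosphofructokinase, fell. Of 27 sterol synthesis genes, 19 fell and 5 rose (median -0.74; 3 rose and 22 fell without normalization). Dhcr7, an enzyme of the last steps to cholesterol, went from 91.0, 97.0 and 92.4 CPM to 15.9, 13.7 and 13.2 CPM (-2.71 ± 0.11, adjusted p = 6.3e-13). In fatty acid synthesis 13 of 25 genes fell and 9 rose. Fads1 (-4.29), Fads2 (-2.19) and Scd2, which make double bonds, fell with the elongase Elovl6 (-3.51), whereas Elovl4, which makes the ultra-long chains of skin barrier lipids, went from 9.93, 9.07 and 10.3 CPM to 147, 157 and 164 CPM (4.0 ± 0.11, adjusted p = 4.4e-15). In fatty acid oxidation 13 of 26 genes fell and 9 rose (5 rose and 15 fell with upper-quartile scaling, 3 rose and 16 fell without normalization), with the entry enzyme Cpt1a (3.59) higher and the matrix enzyme Hadh (-3.39) lower. Polyamines are small cations that cells need to grow. Smox, which oxidises spermine, went from 5.52, 3.95 and 7.22 CPM to 295, 294 and 261 CPM (5.68 ± 0.16, adjusted p = 1.3e-12), and Sat1, which acetylates polyamines for export, from 283, 269.7 and 196 CPM to 2203, 2129.8 and 1873 CPM (3.05 ± 0.12, adjusted p = 2.6e-12), while the spermidine synthase gene Srm fell (-2.11). In that list 7 of 14 genes rose and 3 fell (6 rose and 6 fell without normalization or with upper-quartile scaling, 6 rose and 5 fell at a minimum count of 50 or without vehicle replicate 1, 7 rose and 5 fell by DESeq2).

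Most genes of replication, deoxynucleotide supply, recombination and the spindle checkpoint fell. Of 48 genes of origin licensing and the replication fork, 41 fell and 3 rose (median -2.23; 1 rose and 42 fell with upper-quartile scaling, 1 rose and 44 fell without normalization). The enzymes that supply deoxynucleotides followed, with 16 of 19 lower and 1 higher (median -1.86). Rrm2, the ribonucleotide reductase subunit made in S phase, went from 169, 301 and 423 CPM to 5.12, 4.55 and 4.39 CPM (-5.99 ± 0.46, adjusted p = 1.5e-05), and thymidine kinase Tk1 from 33.8, 67.5 and 111 CPM to 0.899, 1.10 and 0.925 CPM (-6.18 ± 0.58, adjusted p = 3.1e-05). The exception was Cmpk2 (5.08), a mitochondrial nucleotide kinase induced by interferon, which rose. Of 47 centromere and spindle checkpoint genes, 38 fell and 3 rose (median -3.18; 1 rose and 43 fell without normalization, 6 rose and 38 fell without vehicle replicate 3), and of 24 Fanconi and homologous recombination genes, 22 fell and 1 rose (median -1.79). Fance (1.09), a subunit of the Fanconi core complex, was the member that rose, and Fancd2 (-5.28; -6.06 without PMA 6 h replicate 3), the protein this complex marks, fell. Mybl2, the MYB factor that switches on mitotic genes, went from 72.0, 107 and 143 CPM to 1.87, 3.16 and 1.50 CPM (-5.65 ± 0.36, adjusted p = 7.7e-07), and E2f1 fell (-3.13). The vehicle libraries differed in all of Rrm2, Tk1 and Mybl2, with replicate 3 the highest, and no vehicle library came near the 6 h levels. Not every cell cycle list shared this. Of 20 histone genes, 10 rose and 2 fell (median 1.10, but 0.54 without PMA 6 h replicate 3; 9 rose and 6 fell with upper-quartile scaling, 6 rose and 7 fell without normalization, 7 rose and 1 fell at a minimum count of 50, 10 rose and 4 fell without vehicle replicate 1), and reads shared by near-identical histone copies make these counts uncertain. Of 22 kinesins, 6 rose and 11 fell (median -0.39, but -0.26 to -0.21 without vehicle replicate 1, without vehicle replicate 2, without vehicle replicate 3 or without PMA 6 h replicate 2; 2 rose and 14 fell with upper-quartile scaling, 1 rose and 17 fell without normalization). Of 16 cohesin and condensin genes, 6 rose and 8 fell (median -0.26, but -0.10 without vehicle replicate 3; 3 rose and 12 fell without normalization), but 8 rose and 7 fell without PMA 6 h replicate 2. Cyclins and their kinases were near the shares of all genes, with 17 of 40 higher and 18 lower (10 rose and 23 fell without normalization). Ccna2 (-5.96) and Cdk1 (-5.09), which drive S phase and mitosis, and Ccnd1 (-1.17), the growth factor-dependent cyclin, fell. Ccng2, an atypical cyclin of arrested cells, went from 25.5, 29.1 and 22.4 CPM to 369, 358 and 412 CPM (3.89 ± 0.10, adjusted p = 1.7e-15), and Ccnl1, a cyclin of splicing, rose by 3.12.

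**Figure D5:**
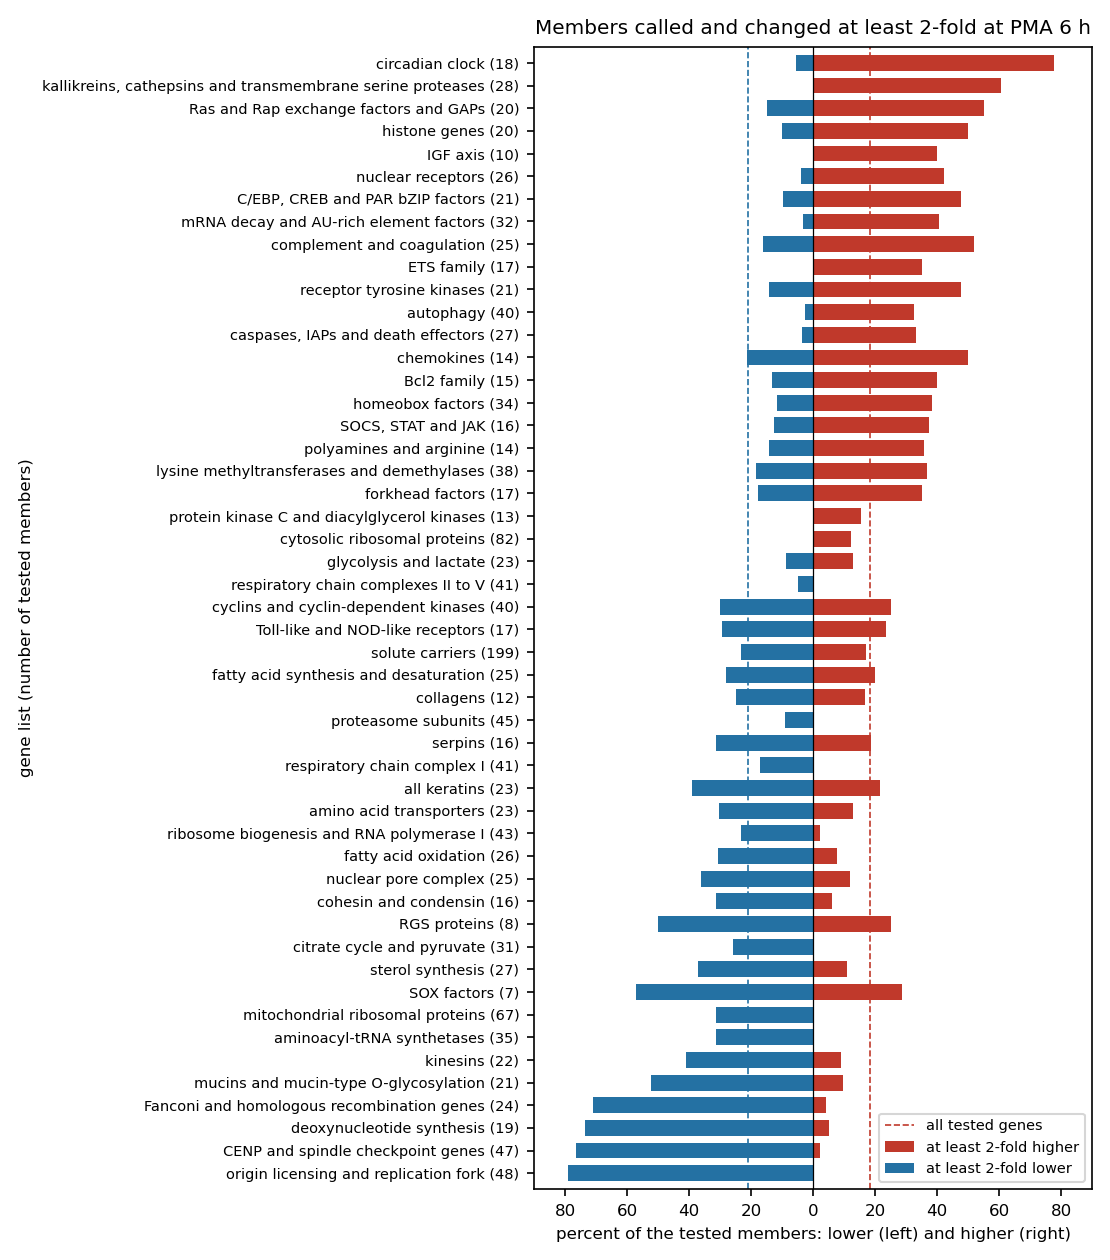
Bars give the percent of tested members called and changed at least 2-fold at PMA 6 h, higher (red, right) or lower (blue, left). Each gene list described in the text is shown, except translation initiation factors. Dashed lines give 18.4% and 21.0%, the shares among all tested genes. Clock genes, proteases and Ras and Rap regulators lie furthest to the higher side, and genes of replication, deoxynucleotides and centromeres furthest to the lower side.

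Genes of mRNA decay and autophagy rose more often than they fell. Of 32 mRNA decay and AU-rich element factors, 23 rose and 6 fell (median 0.69; 13 rose and 10 fell without normalization). Btg1, an antiproliferative partner of the deadenylase complex, went from 127, 148 and 149 CPM to 2987, 3088 and 2694 CPM (4.37 ± 0.10, adjusted p = 3.1e-16), and its relative Tob1 rose by 2.58. Zfp36 (tristetraprolin), which marks inflammatory mRNAs for decay, went from 69.3, 69.0 and 59.9 CPM to 1015, 1087 and 845 CPM (3.89 ± 0.10, adjusted p = 1.8e-15), and Zfp36l1 rose by 2.20. Of 40 autophagy genes, 32 rose and 4 fell (median 0.72; 18 rose and 10 fell without normalization, 29 rose and 2 fell without PMA 6 h replicate 2). The cargo receptor Sqstm1 went from 294, 278 and 255 CPM to 1109, 1138 and 1157 CPM (2.04 ± 0.08, adjusted p = 1.6e-13), and Rb1cc1 (1.76) and Atg14 (1.82), which start the autophagosome, rose. Proteasome subunits moved less, with 22 of 45 lower and 10 higher (median -0.20; 2 rose and 32 fell with upper-quartile scaling, 0 rose and 39 fell without normalization), and the largest falls were those of the immunoproteasome genes Psmb10 (-2.02) and Psmb9 (-1.56). In the nucleus, 14 of 25 nuclear pore genes fell and 7 rose (4 rose and 17 fell with upper-quartile scaling, 3 rose and 20 fell without normalization), with Nup93 at -1.97 and Nup98 at 1.35. Lysine methyltransferases and demethylases split, with 19 of 38 higher and 15 lower (14 and 18 without normalization). Dot1l, which methylates histone H3 on transcribed genes, went from 44.8, 53.8 and 55.1 CPM to 437, 468 and 454 CPM (3.15 ± 0.09, adjusted p = 3.0e-15), and the demethylase gene Kdm3a rose (2.32).

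Immune and cell death genes were mixed. Of 14 chemokines and receptors tested, 8 rose and 3 fell (median 1.47, but 0.00 to 0.83 without the count filter, at a minimum count of 50, without vehicle replicate 1, without PMA 6 h replicate 1 or without PMA 6 h replicate 2; 7 rose and 5 fell without normalization). Cxcl3, a neutrophil attractant, went from 664, 788 and 750.2 CPM to 3209, 3456 and 2508 CPM (2.06 ± 0.11, adjusted p = 2.2e-11), and Cxcl2 rose by 3.07. The monocyte attractant Ccl2 fell by 3.54 on the log2 scale. Of 25 complement and coagulation genes, 16 rose and 7 fell (median 1.08, but 0.54 without the count filter). The urokinase receptor gene Plaur went from 38.8, 44.0 and 53.7 CPM to 1127, 1149 and 1050.2 CPM (4.61 ± 0.12, adjusted p = 3.0e-15). Cd55 (2.68), which protects cells from complement, and Thbd (thrombomodulin, 2.63), which restrains clotting, rose, and C1r (-3.40), a protease that starts the complement cascade, fell. In the Toll-like and NOD-like receptor list, 9 of 17 fell and 6 rose (median -0.35, but -0.23 without vehicle replicate 3). The inflammasome genes Nlrp1a (-4.04; -4.80 without PMA 6 h replicate 3) and Pycard (-3.83) fell, and Tollip, a brake on these receptors, went from 75.5, 76.1 and 86.0 CPM to 300.5, 314 and 300.1 CPM (1.95 ± 0.08, adjusted p = 2.7e-13). Among caspases, inhibitors of apoptosis and death effectors, 14 of 27 rose and 5 fell (median 0.46, but 0.31 without the count filter, and -0.07 without normalization; 14 rose and 9 fell with upper-quartile scaling, 10 rose and 11 fell without normalization). The inhibitors Birc3 (2.78) and Cflar (2.28) rose with the kinase gene Ripk1 (1.86). In the Bcl2 family, 8 of 15 rose and 4 fell. The survival gene Mcl1 (1.64) and the killer gene Bcl2l11 (1.50) both rose.

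Transport genes had no common direction, but single members changed strongly. Of 199 tested solute carriers, 82 fell and 60 rose (median -0.16, but -0.28 to -0.11 without the count filter, at a minimum count of 50 or without vehicle replicate 1; 36 rose and 123 fell without normalization). Slc6a14 stood at 0.432, 1.12 and 2.39 CPM in the vehicle libraries and 492, 549 and 539 CPM at 6 h (8.71 ± 0.31, adjusted p = 9.1e-09; 9.39 without vehicle replicate 3). Among amino acid transporters 12 of 23 fell and 7 rose (3 rose and 14 fell without normalization). Of the glutamine carriers, Slc38a2 rose (1.45) and Slc38a3 fell (-2.92). Of the drug efflux pumps, Abcb1a went from 7.47, 7.61 and 4.94 CPM to 45, 41.4 and 48.0 CPM (2.74 ± 0.15, adjusted p = 2.2e-11), and Abcg2, a pump known from stem cells, from 13.4, 15 and 13.2 CPM to 1.25, 0.881 and 1.21 CPM (-3.62 ± 0.27, adjusted p = 1.2e-09). The heat-sensing channel Trpv3 of keratinocytes went from 2.16, 2.41 and 4.25 CPM to 55.6, 64.1 and 65.0 CPM (4.41 ± 0.17, adjusted p = 1.2e-12).

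Markers of other cells of the olfactory epithelium and its stroma were mostly near 0. Summed over 11 neuronal markers, levels were 179.9 to 211 CPM in vehicle and 108 to 116 CPM at 6 h, nearly all from Adcy3 (-0.83), with Neurog1, Gap43, Stmn2 and Cnga2 without a read in either group. Over 7 sustentacular and gland markers the sums were 1207 to 1412 CPM and 1954 to 2015 CPM. Krt8 made up most of this, at 1304 and 1871 CPM (0.52; -0.02 without normalization, not called), and the defining Cyp2g1, Ermn and Bpifa1 had no read. The sums were 3.02 to 4.20 and 0.983 to 1.87 CPM over 6 respiratory and microvillar markers, and 4.51 to 6.0 and 2.06 to 3.82 CPM over 9 fibroblast and pericyte markers. Over 7 immune markers they were 18.5 to 21.1 and 69.0 to 71.8 CPM, with Cd68, a lysosomal protein gene of macrophages, at 19.6 and 69.4 CPM (1.83) and the leukocyte gene Ptprc without a read. Endothelial and glial markers summed to 0.425 to 0.863 and 0.881 to 1.68 CPM. The part of these markers in the results was not tested.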

How the data were processed

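RNA from 3 vehicle, 3 PMA 6 h and 3 PMA 12 h libraries was sequenced. The deposited values are raw read counts per gene in the layout of STAR's gene counts, with an unstranded column (used here) and 2 per-strand columns. The submitters' processing notes name STAR (2.7.5b), DESeq2 and the genome build rn6. No setting is given in the sources used here. Rows for unmapped, multimapping, outside-gene and ambiguous reads were left out of totals and tests. Over the 6 libraries compared, multimapping reads were 5.95% to 6.35% and reads outside genes 16.6% to 17.9%. Counts do not use strand, so overlapping and antisense genes cannot be separated, and near-identical copies such as ribosomal proteins are uncertain.

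Genes passing edgeR's filterByExpr (minimum count 10, 10128 of 17315) were fitted with edgeR (4.0.16, R 4.3.3) by group over all 9 libraries, with TMM normalization and the robust quasi-likelihood test. P-values were adjusted over all tested genes by the Benjamini-Hochberg method, and genes under an adjusted p of 0.05 were called. CPM is per 1000000 TMM-scaled reads. Fold changes with ± are log2 values with an approximate SE. It is the size of the coefficient fitted without a prior count, divided by the square root of the test's F statistic. Where a group had few reads, it can understate the uncertainty. Spread between replicates corresponded to a common dispersion of 0.0125 (11.2% as a coefficient of variation). The fit was tested on simulated data. Few genes were changed there, up and down alike and with a single dispersion. That simulation therefore does not test the scaling where most genes change. Alternatives used limma (3.58.1), DESeq2 (1.42.0), other scalings and filters, a replicate block, summed strand columns and each library left out.

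The members and gene lists were chosen with earlier results of these data known. The genes named include the 15 largest rises and 15 largest falls among called genes whose groups did not overlap. These also had a mean of at least 10 CPM in the higher group. The 10 largest gains and losses in CPM and the 10 genes of highest CPM in each group were named. So were the 10 most-read genes whose fold change lay within 1.2-fold of none. In each gene list, up to 4 called members in the main direction were named, and up to 2 in the other. The most-read member and any not called were named as well. Cell type markers, genes with reads in only 1 group and genes with a printed promoter were also named. A few genes that this rule names are not reported here.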

Additional observations from a re-analysis of the deposited data

How the results depend on the processing

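Scaling moved the counts of genes most. Without normalization 2277 genes rose, 984 by at least 2-fold, and 3581 fell by at least 2-fold. Of 97 gene lists, 42 had a median below 0, against 64 with upper-quartile scaling and 78 without normalization. No call turned direction with upper-quartile scaling, and 261 did without normalization. With each library left out, 3624 to 3747 genes rose and 3725 to 3896 fell. Medians fell below 0 without normalization for SOCS, STAT and JAK genes (-0.13), homeobox factors (-0.33), glycolysis (-0.52), polyamines (-0.26), lysine methyltransferases and demethylases (-0.29), caspases (-0.07) and the Bcl2 family (-0.16). With upper-quartile scaling they did for homeobox factors (-0.05), glycolysis (-0.23) and lysine methyltransferases and demethylases (-0.01). The glycolysis median was -0.02 at a minimum count of 50, and -0.02 to 0.06 with 1 library left out, and the homeobox median was -0.00 to 0.32 with 1 library left out. The SOX median was -1.31, and 0.97 without a count filter. Col18a1 ranged from -0.08 to 0.14 with 1 library left out and was at -0.23 with upper-quartile scaling, -0.52 (called) without normalization and -0.02 at a minimum count of 50. Krt17 was at -0.23 (called), -0.51 (called) and -0.01 under the same settings and from -0.03 to 0.07 with 1 library left out. Without normalization Icam1 was at -0.24 and Krt8 at -0.02. Why the scalings differ was not tested.

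The labels do not say whether replicate numbers pair the libraries. Correlations of deviations between vehicle and PMA 6 h libraries ran from -0.0333 to 0.0270. Those of the same number were -0.00367, 0.0185 and 0.0270. Each deviation is taken from a mean of 3 libraries, so these values cannot show that pairing is absent. With the replicate block, 3765 genes rose and 3885 fell. Depth limits genes of few reads: 0 reads over the 3 libraries of a group allow up to 3 counts there.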

Other observations

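Some genes had reads in only 1 of the groups. For these, the fitted fold change depends on the prior count and is not given. The bound given is the pooled reads over the pooled scaled totals of the group with reads, divided by the same ratio for 3 reads in the whole other group. It covers counting error in the group without reads only. The reads of the other group are taken as exact, and spread between libraries is not covered. Syt4, a vesicle protein of neurons and endocrine cells, had no read in vehicle and stood at 4.57, 4.04 and 6.13 CPM at 6 h, which is at least 109-fold higher. Leaving out each library in turn gave bounds of 70.1 to 118. Dao, an oxidase of D-amino acids, had no read in vehicle and stood at 2.77, 2.50 and 2.83 CPM after PMA. That is at least 59.0-fold higher (bounds of 38.0 to 61 with each library left out). Rorb, a nuclear receptor of neurons, went from no read to 1.59, 0.955 and 0.752 CPM, at least 23.5-fold higher (15.1 to 27.9). At 12 h the mean was 0.281 CPM for Syt4, 1.19 CPM for Dao and 1.35 CPM for Rorb.

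In the other direction, Pbk, a mitotic kinase, stood at 11.7, 25.7 and 35.9 CPM in vehicle and had no read at 6 h, at least 358-fold lower (221 to 458 with each library left out). Ns5atp9 stood at 8.89, 19.5 and 35.2 CPM in vehicle and had no read at 6 h, at least 306-fold lower (190.0 to 401). Parpbp, a regulator of recombination, went from 3.06, 5.72 and 11.8 CPM to no read, at least 98.7-fold lower (61.1 to 128). Depdc1b went from 1.86, 4.94 and 5.20 CPM to no read, at least 59.3-fold lower (36.7 to 76.5). In all of these, vehicle replicate 1 was the lowest vehicle library and vehicle replicate 3 the highest. Bdnf, a neurotrophin, did not share that order, with 1.12, 1.89 and 0.797 CPM in vehicle and no read at 6 h, at least 19.7-fold lower (12.2 to 22.8).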
